A study of Mus musculus with 119 samples.

Results

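The transcriptional response to LPS was followed in bone marrow–derived macrophages (BMDMs) kept in RSKi47, an inhibitor of the ribosomal S6 kinases RSK1 and RSK2, by comparing 4 RNA-seq libraries made after 2 h of LPS with 4 made without LPS. These 8 libraries, of 119 in the series, were chosen by their labels alone. All came from wild-type (WT) C57BL/6(NIMR) cells that were given 2 µM RSKi47, the stimulated ones for 10 min before LPS was added at 100 ng/ml and the others for 10 min with no LPS. The same experiment held 3 libraries at 0.5 h and 4 at 1 h of LPS, and the question was how these cells respond when RSK signaling is blocked. For comparison, untreated C57BL/6(NIMR) WT cells gave 6 libraries without LPS and 4 at 2 h. Untreated *Map3k8*[D270A] cells of the same strain, whose TPL-2 has no kinase activity, gave 6 and 6. Those of *Elk1*-/-*Elk4*-/- genotype, which lack both transcription factors, gave 4 and 4. All of these were taken, from their sample titles, to come from other experiments. Ages and numbers of animals are not given in the labels. Time in RSKi47 grew with time in LPS, and cells kept in RSKi47 alone for 2 h or in its solvent were not analysed here, so effects of LPS and of longer inhibition cannot be told apart. BMDMs are grown from bone marrow in culture, and each library averages the cells of a culture, so fewer cells of a type and less RNA per cell cannot be told apart.

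LPS, a component of Gram-negative bacteria, binds the TLR4 complex on macrophages and switches on NF-κB, the MAP kinases and, through interferon regulatory factors, type I interferon. In the TPL-2 arm, IκB kinase releases TPL-2, which activates MKK1/2 and ERK1/2, and ERK1/2 in turn activates RSK. RSK phosphorylates targets that include the transcription factor CREB. The early products of this program are transcription factors and feedback inhibitors, and the later ones are cytokines, chemokines, antimicrobial enzymes and interferon-stimulated genes.

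The cultures carried the mRNAs that define macrophages. *Lyz2*, which encodes lysozyme, lay between 18.12 and 18.45 on the log2 scale of the deposited values in all 8 libraries, and *Csf1r*, the M-CSF receptor, between 15.07 and 15.41. Markers of other cells were mostly near the bottom of the scale. The T and NK cell genes *Cd3e*, *Cd3d*, *Cd3g*, *Cd8a*, *Ncr1* and *Nkg7*, the B cell genes *Cd79a* and *Ms4a1*, and the neutrophil genes *Elane*, *Mpo* and *Ly6g* stayed below a linear value of 10 in each of the 8 libraries. They were among 7 of 12 neutrophil, 8 of 10 T and NK cell and 6 of 7 B cell genes that did so. Of the others, *Mmp8*, a collagenase of neutrophils, lay at 9.76 to 10.35 on the log2 scale, *Ngp* reached 6.74, *S100a9* 6.87 and *S100a8* 6.54, *Cd4* lay at 7.34 to 7.88 and *Cd79b* at 4.91 to 5.35. Of 11 stromal genes, 7 stayed below a linear value of 10, whereas *Col1a1* lay at 3.91 to 9.03 and *Col1a2* at 4.4 to 7.28. The part of these cells in the results was not tested. Summed over 12 neutrophil genes, the linear level was 1071 to 1538 without LPS and 1118 to 1649 at 2 h, and over 11 stromal genes it was 93.5 to 734 and 108 to 153. Replicate 4 stood apart at both times: its root-mean-square distance from the mean of the other replicates was 0.227 without LPS and 0.291 at 2 h, against 0.127 to 0.162 for the other libraries. Counts of called genes that differ without it are given below. The depth of each library is unknown because the values are not counts, and the authors state only a typical yield.

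After 2 h of LPS under RSKi47, 665 genes were higher and 201 were lower than without LPS, called by limma where the Benjamini-Hochberg adjusted p was under 0.05 and the log2 difference was 1 or more in size. This was 5.66% and 1.71% of 11753 genes tested. The earlier times gave 67 higher and 6 lower genes at 0.5 h (0.570% and 0.0511%) and 280 and 53 at 1 h (2.38% and 0.451%), against the same libraries without LPS. Of the 665 genes, 609 had their highest mean at 2 h, 53 at 1 h and 3 at 0.5 h. Likewise, 195 of the 201 lower genes had their lowest mean at 2 h. Both sets were chosen by their 2 h values, which favors an extreme at 2 h. The libraries without LPS and at 2 h did not overlap in 3334 genes that were higher (28.4%) and 2973 that were lower (25.3%). Without replicate 4 at every time the counts of called genes were 708 and 223, of which 655 and 194 were shared with the first set. The median log2 difference over all genes tested was 0.0018.

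The 12 largest rises and the 12 largest falls were taken from called genes whose libraries did not overlap between times. The rises included genes for cytokines (*Il12b*, *Il27*, *Il6*, *Ifnb1* and *Il1b*), for the enzymes *Nos2*, *Irg1* and *Ptgs2*, and *Adamts4*, *Nr4a3*, *Cd69* and *Edn1*. *Il12b* (chr11:44400063-44414677, GRCm38), which encodes the p40 chain shared by IL-12 and IL-23, was at 5.34, 5.55, 5.56 and 5.49 on the log2 scale in replicates 1 to 4 without LPS and at 13.96, 14.14, 14.46 and 13.06 at 2 h. It rose by 8.42 ± 0.31 (SE, n = 4 and 4; adjusted p = 3.46e-11 by limma), the largest rise among genes whose 2 h libraries were all above the others. *Il27* (chr7:126589009-126595035), the p28 chain of IL-27, went from 4.98, 4.88, 5.11 and 4.85 to 11.32, 12.24, 12.08 and 10.43. *Il6* (chr5:30013114-30019975), an inducer of the acute-phase response, went from 3.63, 3.63, 3.69 and 3.71 to 9.38, 10.10, 10.11 and 8.26. In these cytokine genes the 2 h level was lowest in replicate 4. The rises were 6.56 ± 0.35 for *Il27* (SE; adjusted p = 1.34e-09 by limma) and 5.80 ± 0.32 for *Il6* (SE; adjusted p = 2.11e-09 by limma).

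*Nos2* (chr11:78920787-78960226), the inducible nitric oxide synthase, was at 4.03, 4.11, 4.03 and 4.07 without LPS and at 10.84, 11.45, 11.91 and 10.42 at 2 h. *Irg1* (listed by RefSeq as *Acod1*, chr14:103047012-103056573), which makes itaconate from a citric acid cycle intermediate, started higher, at 9.57, 9.46, 9.70 and 9.72, and reached 15.44, 15.58, 15.72 and 15.15. *Ptgs2* (chr1:150100031-150108234), the inducible cyclooxygenase of prostaglandin synthesis, went from 7.16, 7.30, 7.22 and 7.31 to 12.97, 13.37, 13.31 and 12.51. The 3 enzymes rose by 7.10 ± 0.23, 5.86 ± 0.14 and 5.79 ± 0.21 (SE; adjusted p = 1.08e-11, 5.65e-13 and 3.33e-11 by limma). *Adamts4* (chr1:171250129-171262267), a protease of cartilage proteoglycans, rose by 7.11 ± 0.23 (SE), from 3.75 to 4.05 without LPS to 10.28 to 11.53 at 2 h. *Cd69*, an early activation antigen of leukocytes, rose by 5.22 ± 0.21 and *Edn1*, the endothelin-1 precursor, by 5.10 ± 0.13 (SE).

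The genes that fell included regulators and surface receptors of resting macrophages. *Cnr2* (chr4:135895189-135920219), the cannabinoid receptor of immune cells, was at 9.76, 9.66, 9.77 and 9.70 without LPS and at 6.92, 7.02, 7.10 and 7.05 at 2 h. Its fall of 2.70 ± 0.05 (SE; log2 difference -2.70, adjusted p = 4.72e-14 by limma) was many times the spread between replicates. *Cxcr4* (chr1:128588199-128592299), the receptor for CXCL12, was at 11.22, 11.15, 11.29 and 11.39 and then at 8.85, 8.46, 9.07 and 8.84. *Bmf* (chr2:118528757-118549686), a proapoptotic BH3-only protein, went from 8.73, 8.73, 8.84 and 8.79 to 6.20, 6.13, 6.48 and 6.58. Replicates lay close together in all of these, and the log2 differences were -2.46 ± 0.13 for *Cxcr4* and -2.43 ± 0.11 for *Bmf* (SE; adjusted p = 1.03e-09 and 2.21e-10 by limma).

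Further falls were in *Lpar6* (-2.69), a lysophosphatidic acid receptor, *Arrdc3* (-2.65), an arrestin-like adaptor, and *Irf2bp2* (-2.45), a transcriptional corepressor. Chosen by the same rule were *Cd300lb* (-2.25), a myeloid receptor, *Fbxo32* (-2.20), a ubiquitin ligase subunit, and *Gpr146* (-2.17), an orphan receptor. The rule also named *Rn45s* and *Mir6236*. *Rn45s*, the ribosomal RNA precursor, was at 18.06, 18.27, 18.95 and 19.25 without LPS and at 15.30, 15.56, 15.91 and 15.90 at 2 h. *Mir6236*, a microRNA locus (chr9:110281287-110281409), went from 7.21, 8.17, 9.80 and 10.89 to 5.12, 5.33, 6.11 and 6.08. Ribosomal RNA genes have many copies, so how reads were assigned to *Rn45s* is uncertain. At 1 h *Rn45s* was already down at 15.40 to 15.78. Its part in the other results was not tested.

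**Figure D1:**
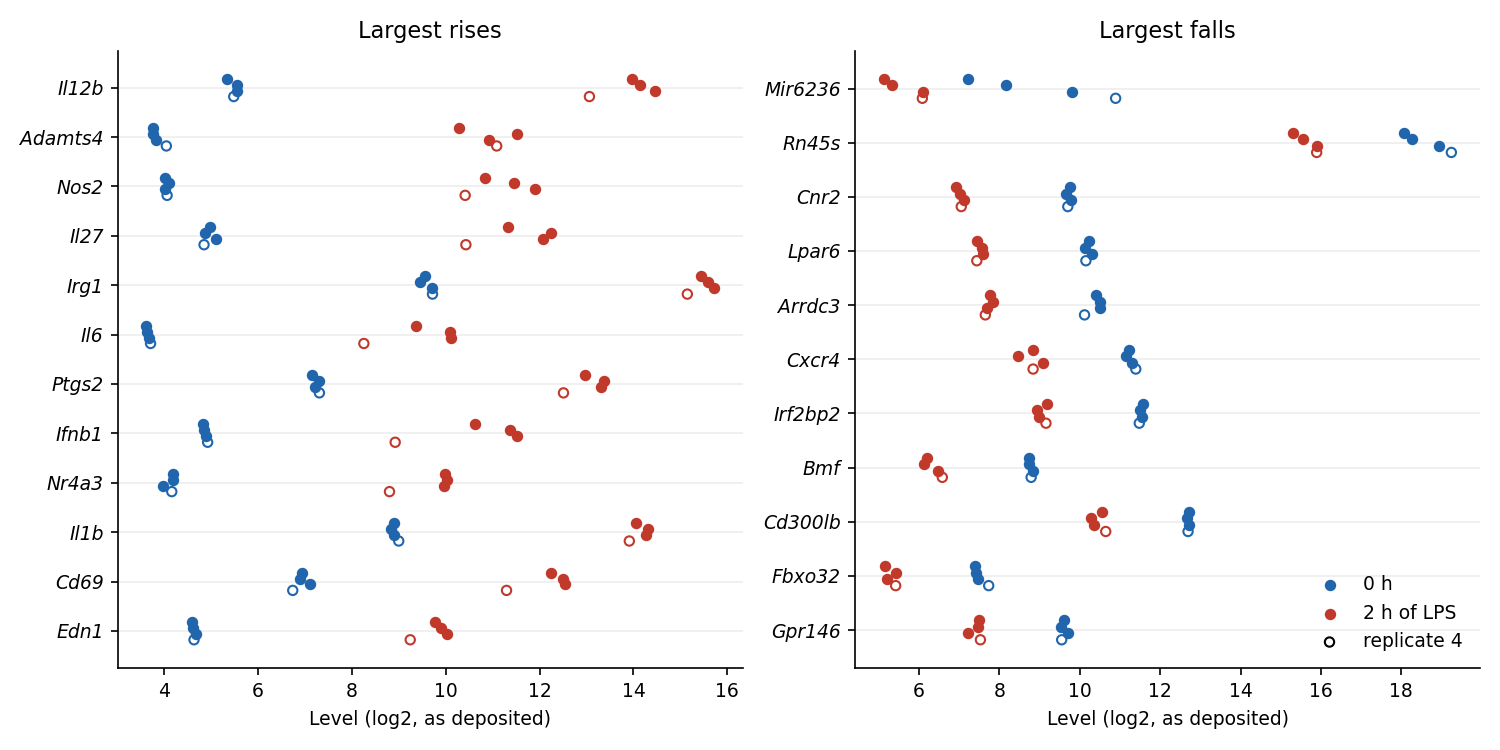
Level (log2, as deposited) of the genes with the largest rise (left) and the largest fall (right) in each RSKi47 library, without LPS (blue) and at 2 h of LPS (red), with replicate 4 as open circles. Genes were taken only from those whose red and blue points do not overlap. Replicate 4 has the lowest 2 h level of *Il12b* (13.06), *Il6* (8.26) and *Ifnb1* (8.92).

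Most genes of the NF-κB system and its own inhibitors rose. Of 20 genes for subunits, IκB proteins and feedback regulators, 17 were higher and none lower, beside 5.66% and 1.71% of all genes, with a median log2 difference of 2.04 beside 0.0018 over all genes tested. *Nfkbiz* (chr16:55811375-55838954), a nuclear IκB protein needed for secondary NF-κB targets such as *Il6*, was at 10.74, 10.67, 10.77 and 10.52 and rose to 14.45, 14.59, 14.56 and 14.22. *Nfkbia* (chr12:55489409-55492647), which encodes IκBα and holds NF-κB in the cytoplasm, went from 11.77, 11.70, 11.80 and 11.86 to 14.63, 14.67, 14.68 and 14.57. The differences were 3.78 ± 0.08 and 2.86 ± 0.04 (SE; adjusted p = 2.62e-13 and 9.38e-15 by limma). *Tnfaip3*, the ubiquitin-editing enzyme A20, rose by 2.96, and *Traf1*, an adaptor of TNF receptors, by 2.92. Among the subunits, *Rel* rose by 2.32, *Nfkb2* by 2.15, *Nfkb1* by 1.91, *Relb* by 1.84 and *Rela* by 1.22, which was no longer called under quantile normalization. The 3 genes that were not called were *Irak3* (0.46), *Cyld* (0.19) and *Tnip2* (0.00). The counts were the same without replicate 4.

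Upstream of NF-κB, 6 of 17 genes of the TLR4 complex and its adaptors were higher and none was called lower (median 0.59), counts that, like those of the lists that follow, are read beside 5.66% higher and 1.71% lower over all genes. *Tlr2*, a receptor for bacterial lipoproteins, went from 11.05, 11.09, 11.10 and 11.19 to 13.90, 14.02, 14.07 and 13.92, a rise of 2.87 ± 0.05 (SE; adjusted p = 5.48e-14 by limma). *Irak2* (1.42), a kinase of the MyD88 arm, *Cd14* (1.39), the co-receptor that hands LPS to TLR4, *Ticam2* (1.09), the adaptor TRAM, *Tab2* (1.03) and *Myd88* (1.00) also rose. *Tab2* and *Myd88* lost the call under median centring, which left 4 genes, and *Ticam2* as well under quantile normalization, which left 3. *Tlr4* itself had a log2 difference of -0.69 ± 0.12 (SE), past the adjusted p (0.000217 by limma) but not the size that was called.

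Cytokine and chemokine genes gave the highest shares. Of 19 cytokine genes tested of 21 listed, 17 were higher and none lower (median 2.76). Besides those named above, *Il1b*, the IL-1β precursor, was at a mean of 8.91 ± 0.07 (SD, n = 4) and reached 14.05, 14.31, 14.26 and 13.91, and *Tnf* went from 11.65, 11.52, 11.54 and 11.59 to 15.59, 15.68, 15.74 and 15.50. These rises were 5.22 ± 0.17 and 4.05 ± 0.12 (SE; adjusted p = 9.79e-12 and 3.69e-12 by limma). The anti-inflammatory cytokine gene *Il10* rose less and with more spread, from 6.08, 6.09, 6.18 and 5.94 to 7.94, 7.77, 7.54 and 6.71 (1.42, adjusted p = 0.0305 by limma). *Il18* (0.52) and *Osm* (0.20) were not called, and *Csf3* and *Il12a* were too low to be tested.

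Of 19 chemokine genes tested, 17 were higher and none was lower, with a median of 3.73. *Cxcl10* (chr5:92346638-92348889), which draws activated T cells, was at 10.36, 10.39, 10.54 and 9.65 without LPS and at 15.40, 15.64, 15.73 and 14.37 at 2 h, so that replicate 4 was lowest at both times while the rise of 5.05 ± 0.28 (SE; adjusted p = 2.74e-09 by limma) was seen in every replicate. *Cxcl3* (4.67), a neutrophil attractant, *Ccl22* (4.54), a ligand of CCR4, and *Ccl5* (4.52), a T cell attractant, followed. *Ccl24* (0.60) and *Ccl6* (0.09) were not called. Without replicate 4, 16 chemokine genes were higher.

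Interferon-stimulated genes rose in part. Of 33 tested, 22 were higher and none lower (median 1.75), also without replicate 4. *Gbp5*, a GTPase of inflammasome activation, went from 8.60, 8.77, 8.78 and 8.06 to 13.41, 13.69, 13.69 and 12.95 (4.88 ± 0.22, SE; adjusted p = 2.2e-10 by limma). *Ifit1*, which binds viral RNA, went from 11.02, 11.10, 11.26 and 10.11 to 14.48, 14.76, 14.81 and 13.53 (3.52 ± 0.31, SE; adjusted p = 2.91e-07 by limma). In both genes replicate 4 was lowest before and after LPS. *Rsad2*, the antiviral enzyme viperin, rose by 3.54 and *Irf1*, a transcription factor induced by interferon and NF-κB, by 2.93. The 11 genes not called, among them *Stat2* (0.41), *Irf7* (0.71), *Oas2* (0.43) and *Oas3* (0.21), had positive differences from 0.21 to 0.83.

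**Figure D2:**
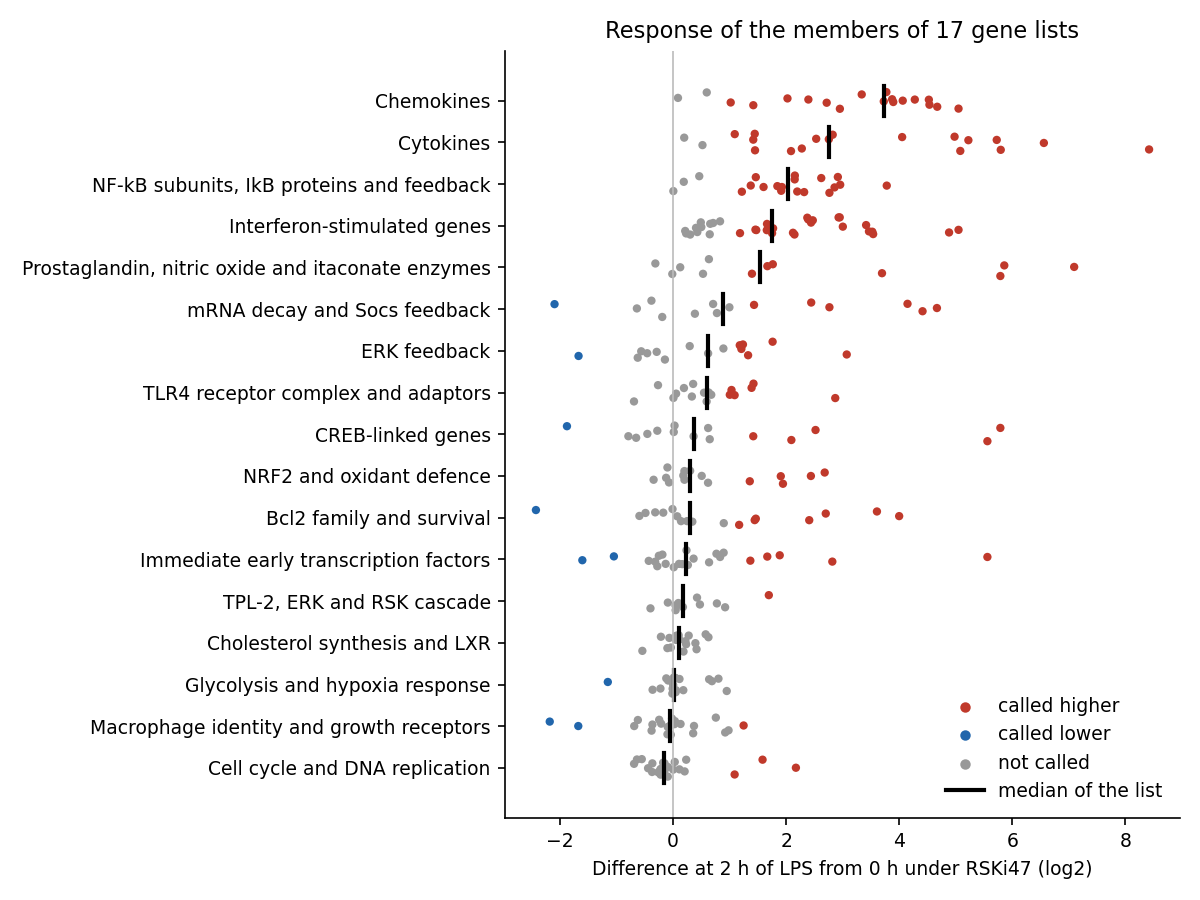
Log2 difference between 2 h of LPS and no LPS under RSKi47 for each tested member of 17 gene lists (red, called higher; blue, called lower; grey, not called), with a black bar at the median of the list. Medians run from -0.17 for cell cycle genes to 3.73 for chemokines, and called members fall on both sides of 0 in the immediate early and ERK feedback lists.

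In the list of mRNA decay and Socs genes, 6 of 14 were higher, 1 was lower and 7 were not called, and without replicate 4 the count of higher genes was 7. *Cish* (4.67), *Socs3* (4.41) and *Socs1* (4.15), inhibitors of cytokine receptor signaling, rose most. *Socs3* was at 8.96, 8.96, 8.92 and 9.02 without LPS and at 13.44, 13.59, 13.55 and 12.91 at 2 h. *Socs1* rose without overlap as well, from 5.96, 6.08, 6.06 and 5.66 to 10.37, 10.44, 10.59 and 8.95, with replicate 4 more than 1 below the others. *Zc3h12a* (2.77), the RNase regnase-1, rose too, while *Zfp36l2* (-2.10), which binds AU-rich mRNA, fell from 12.51 to 12.64 down to 10.32 to 10.73. In the list of enzymes for prostaglandin, nitric oxide and itaconate, 7 of 12 were higher and none lower, including *Slc7a2* (3.70), an arginine transporter, and *Ptges* (1.40), the prostaglandin E synthase.

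Of 23 immediate early transcription factor genes, 5 were higher at 2 h, 2 were lower and 16 were not called (median 0.24). Their highest mean was at 0.5 h for 8 genes, at 1 h for 12 and at 2 h for 3. *Fos* was at 10.30, 10.27, 10.33 and 10.54 without LPS, at 13.00, 13.01 and 13.06 at 0.5 h, at 12.67, 11.50, 11.41 and 11.35 at 1 h, and at 8.83, 8.89, 8.80 and 8.50 at 2 h. It thus rose above and then fell below its starting level, with a log2 difference at 2 h of -1.61 (adjusted p = 2.43e-05 by limma). *Jun*, its partner in AP-1, took the same course, from 11.71 to 11.85 through 13.48 to 13.53 at 0.5 h down to 10.38 to 10.93 at 2 h (-1.05). Without replicate 4, *Jun* was no longer called. *Nr4a3*, an orphan nuclear receptor, was instead highest at 2 h, at 9.98, 10.03, 9.96 and 8.80 after 4.19, 4.20, 3.97 and 4.17 without LPS (5.56 ± 0.36, SE; adjusted p = 1.15e-08 by limma). *Maff* (2.82), a small Maf protein, *Batf* (1.89) and *Junb* (1.37), AP-1 proteins, and *Egr3* (1.67), a zinc finger factor, were the others called higher. *Egr1* (0.77), *Nr4a1* (-0.28) and *Fosb* (0.01, 1 value at 1 h missing) were not called.

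The list named ERK feedback, which holds MAP kinase phosphatases and other inhibitors of signaling, and the cascade list gave mixed results. Of 15 ERK feedback genes, 6 were higher and 1 lower, beside 5.66% and 1.71% of all genes. *Dusp2*, a nuclear MAP kinase phosphatase, was at 7.87, 7.82, 7.87 and 7.89 without LPS and at 10.95, 11.18, 11.01 and 10.60 at 2 h (3.07 ± 0.13, SE; adjusted p = 1.71e-10 by limma), having been at 11.41 to 11.54 at 0.5 h. *Dusp6*, the cytoplasmic phosphatase of ERK1/2, fell from 9.42, 9.49, 9.25 and 8.87 to 7.54, 7.71, 7.71 and 7.39 (-1.67 ± 0.17, SE; adjusted p = 1.01e-06 by limma). *Dusp14* (1.76), *Dusp16* (1.33), *Errfi1* (1.24), *Spry1* (1.21) and *Dusp5* (1.18) rose. Of 11 cascade genes tested, only *Map3k8*, which encodes TPL-2, was called, rising by 1.69 ± 0.15 (SE; adjusted p = 2.14e-07 by limma) from 8.98, 8.98, 9.08 and 8.70 to 10.79, 10.84, 10.82 and 10.06.

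The mRNAs of the kinases that RSKi47 targets were measured too, which says nothing about their activity. *Rps6ka1*, for RSK1, was at 11.30, 11.30, 11.35 and 11.31 without LPS and at 10.93, 10.94, 10.85 and 10.95 at 2 h (log2 difference -0.40, adjusted p = 7.06e-08 by limma). *Rps6ka3*, for RSK2, was at 12.15, 12.24, 12.10 and 12.02 and then at 12.24, 12.28, 12.18 and 11.99 (0.04, adjusted p = 0.616), and the sign of its difference turned with quantile normalization (-0.25). *Rps6ka2*, for RSK3, went from 10.44, 10.31, 10.36 and 10.28 to 11.40, 11.17, 11.35 and 11.16 (0.92, adjusted p = 6.25e-09). None of these passed the size that was called, and *Rps6ka6*, for RSK4, was too low to be tested.

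CREB, which RSK can phosphorylate, is linked to 15 genes of a further list, of which 5 were higher and 1 was lower (median 0.36), beside 5.66% and 1.71% of all genes. Under quantile normalization 2 were lower, the further gene being *Rgs2*. *Ptgs2* and *Nr4a3*, both described above, led, followed by *Pde4b* (2.52), a cAMP phosphodiesterase, *Cited2* (2.09), a transcriptional co-regulator, and *Il10* (1.42). *Per1* (-1.88), a clock gene, fell from 9.13 to 9.20 down to 7.20 to 7.36. *Crem* (0.03), *Areg* (0.65) and *Nr4a2* (0.36) were not called.

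Survival, oxidant defense and metabolism differed in how far they moved. Of 18 genes of the Bcl2 family and survival, 7 were higher and 1, *Bmf*, was lower. *Bcl2a1d* (4.00), *Bcl2a1a* (3.61) and *Bcl2a1b* (2.70), antiapoptotic paralogs, rose, but they are near-identical copies between which reads may have been split. *Cflar* (2.41), an inhibitor of caspase-8, and *Bcl2l11* (1.44), the proapoptotic protein BIM, rose as well. Of 15 genes for oxidant defense, 5 were higher, led by *Slc7a11* (2.68), the cystine transporter, and *Sod2* (2.44), the mitochondrial superoxide dismutase, whereas *Hmox1* (-0.34) and *Nqo1* (-0.12) were not called. Of 20 genes for glycolysis and hypoxia, none was higher and only *Vegfa* (-1.15, adjusted p = 0.0183 by limma) was lower. *Hif1a* (0.95) and *Slc2a1* (0.80), the glucose transporter GLUT1, fell short of the size that was called. None of 18 genes for cholesterol synthesis and LXR was called.

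Among 22 genes of macrophage identity, *Irf8*, a transcription factor of the monocyte lineage, was higher (1.25), and 2 genes were lower, among them *Cebpa* (-1.68), which encodes C/EBPα. Without replicate 4, 2 genes of the list were higher. *Csf1r* (-0.02) and *Spi1* (0.76), which encodes PU.1, were not called. The cell cycle list had 3 higher genes of 26, *Cdkn1a* (2.17), the inhibitor p21, *Ccnd2* (1.58), a D-type cyclin, and *Mki67* (1.09), a proliferation marker, and a median of -0.17, beside 5.66% higher over all genes. Under quantile normalization *Irf8* (0.96) and *Mki67* (0.80) were no longer called. *Plk1* (-0.69), *Cdc20* (-0.44) and *Aurkb* (-0.37), which act in mitosis, had negative differences below the size that was called. Of the marker lists of other cells, *Lck* (1.12) among 2 T and NK cell genes tested, *Zbtb46* (1.71) and *Xcr1* (1.28) among 3 of dendritic cells, and *Pdgfrb* (1.17) among 4 of stromal cells were higher, but without replicate 4 *Zbtb46* was no longer called. No tested neutrophil marker (5) was called.

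**Figure D3:**
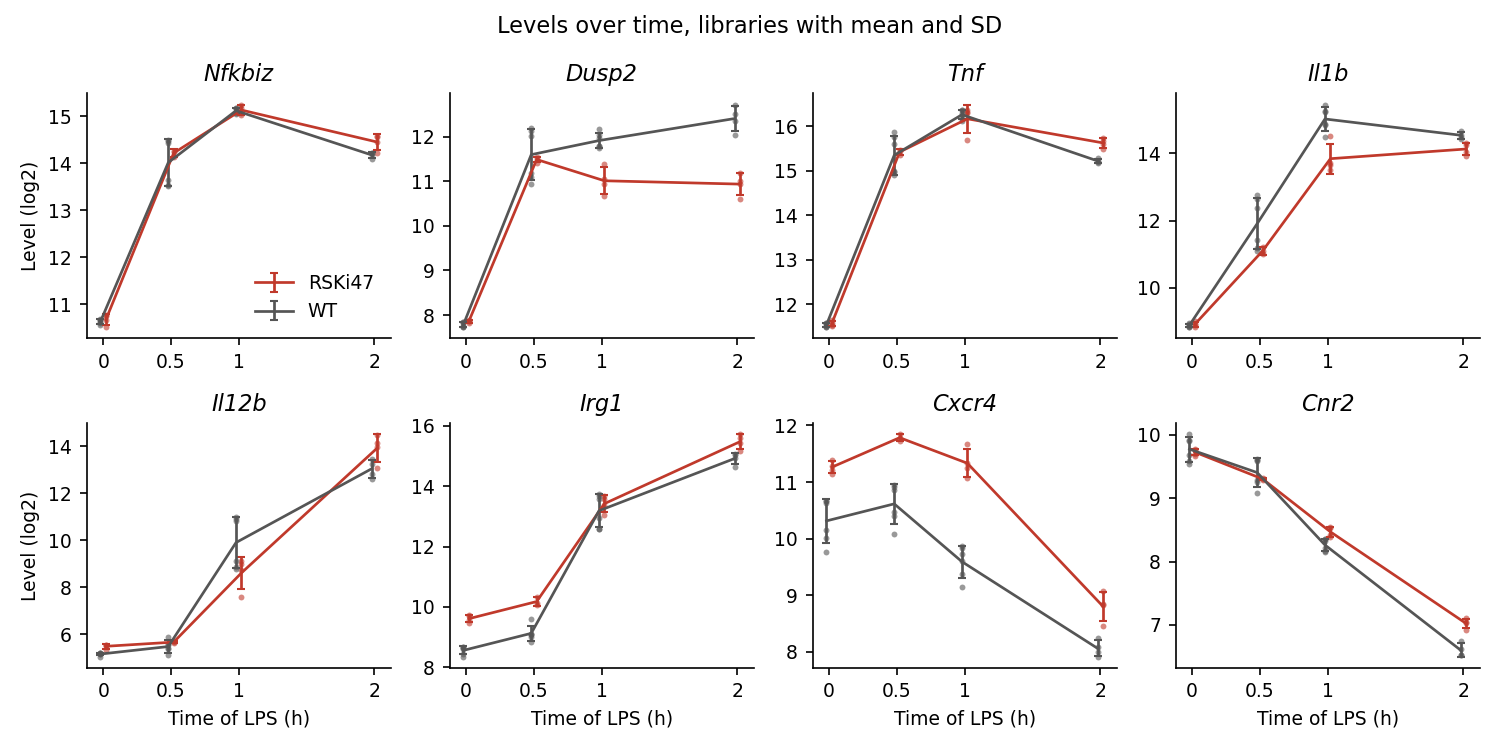
Level (log2) of 8 genes against time of LPS in hours under RSKi47 (red) and in untreated WT cells (grey), as single libraries with the mean and SD of each group (n = 3 or 4 and n = 4 or 6). *Nfkbiz* and *Tnf* are highest at 1 h in both, *Il12b* and *Irg1* at 2 h, *Cxcr4* and *Cnr2* are lowest at 2 h, and *Dusp2* at 2 h is lower under RSKi47 (10.60 to 11.18) than in WT cells (12.04 to 12.72).

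The promoters of induced genes are shown for members that rose together, since the windows hold letters that NF-κB, AP-1 or interferon factors are known to bind. RefSeq gave a window (250 bases before the start to 50 after, build GRCm38.p6) for 64 of the 85 named genes. Capitals mark NF-κB letters (GGGA and TTCC, or GGGAA and CCC, each pair with 2 bases of any kind between), AP-1 letters (TGANTCA), CRE letters (TGACGTCA) or the interferon-stimulated response element ISRE (GAAA and GAAA with 2 bases of any kind between), read on both strands, where motifs may overlap. The 250 bases upstream are given 5′ to 3′ on the strand of the gene for *Nfkbia* (chr12:55492648-55492897, minus strand), *Il6* (chr5:30012864-30013113, plus), *Cxcl10* (chr5:92348890-92349139, minus), *Ifit1* (chr19:34640639-34640888, plus) and *Socs1* (chr16:10785537-10785786, minus).
Nfkbia: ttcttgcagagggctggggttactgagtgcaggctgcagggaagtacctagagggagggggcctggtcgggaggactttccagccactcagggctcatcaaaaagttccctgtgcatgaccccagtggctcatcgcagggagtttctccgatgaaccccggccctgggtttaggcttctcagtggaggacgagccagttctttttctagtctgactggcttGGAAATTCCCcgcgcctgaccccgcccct
Il6: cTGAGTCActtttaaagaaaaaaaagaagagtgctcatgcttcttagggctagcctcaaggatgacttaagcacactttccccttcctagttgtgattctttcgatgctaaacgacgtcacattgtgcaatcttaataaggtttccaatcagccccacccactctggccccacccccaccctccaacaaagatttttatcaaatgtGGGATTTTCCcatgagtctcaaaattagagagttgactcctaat
Cxcl10: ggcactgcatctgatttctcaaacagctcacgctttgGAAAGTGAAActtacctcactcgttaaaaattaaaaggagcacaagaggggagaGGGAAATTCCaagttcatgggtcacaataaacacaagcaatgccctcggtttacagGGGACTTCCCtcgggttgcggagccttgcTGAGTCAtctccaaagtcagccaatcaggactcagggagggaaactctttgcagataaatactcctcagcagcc
Ifit1: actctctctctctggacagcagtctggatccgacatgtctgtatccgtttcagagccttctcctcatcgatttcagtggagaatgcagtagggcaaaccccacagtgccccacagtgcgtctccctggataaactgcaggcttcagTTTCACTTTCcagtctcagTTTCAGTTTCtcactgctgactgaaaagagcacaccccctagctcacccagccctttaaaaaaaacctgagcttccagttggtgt
Socs1: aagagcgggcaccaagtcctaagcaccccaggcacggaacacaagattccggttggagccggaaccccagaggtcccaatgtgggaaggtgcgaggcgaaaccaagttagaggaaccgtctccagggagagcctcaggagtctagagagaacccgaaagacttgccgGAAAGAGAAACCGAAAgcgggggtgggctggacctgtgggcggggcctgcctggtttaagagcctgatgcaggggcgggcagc
The capitals are NF-κB letters in *Nfkbia*, AP-1 and then NF-κB letters in *Il6*, ISRE, NF-κB (in 2 places) and AP-1 letters in *Cxcl10*, and ISRE letters in *Ifit1* (in 2 places) and *Socs1* (2 overlapping matches).

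Taking 1 window per gene, NF-κB letters stood in 41 of 512 genes that were higher at 2 h (8.01%), in 2 of 149 that were lower (1.34%) and in 331 of 9065 tested (3.65%), and in 3.21% of all 32851 windows of that length. ISRE letters stood in 39 of the 512 higher genes (7.62%), in 3 of the lower genes (2.01%) and in 3.20% of genes tested (3.44% of all windows). AP-1 letters stood in 9.18%, 5.37% and 4.99%, respectively (7.81% of all windows). CRE letters were in 1.76%, 3.36% and 3.44% (1.79% of all windows). Within the lists, 6 of 14 called NF-κB genes with a window held NF-κB letters (*Bcl3*, *Nfkb2*, *Nfkbia*, *Rel*, *Tnip1* and *Tnip3*), and 11 of 18 called interferon-stimulated genes held ISRE letters, among them *Gbp5*, *Ifit1*, *Isg15* and *Rsad2*. None of the 4 called CREB-linked genes with a window held CRE letters. These matches are descriptions and were not tested.

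The response under RSKi47 was then set beside that of untreated WT cells, which share no library with it. In 1 fit over 77 libraries and 11919 genes, WT cells had 919 genes higher and 391 lower at 2 h (7.71% and 3.28%), and RSKi47 cells had 668 and 202 (5.60% and 1.69%). Of the 919 genes, 914 moved in the same direction under RSKi47, 808 moved less, and the median ratio of the log2 differences, RSKi47 to WT, was 0.785. Of the 391 genes, 391 moved in the same direction, 355 moved less, and the median ratio was 0.761. These genes were chosen by their WT values, which favors a ratio below 1. Across all 11919 genes the responses had a Pearson correlation of 0.939 and a Spearman correlation of 0.911, as a description across genes that share libraries within each response. The RSKi47 and WT cultures were taken, from their sample titles, to be of different experiments, so inhibitor and experiment cannot be told apart. They already differed without LPS in 119 genes that were higher and 42 that were lower under RSKi47 (0.998% and 0.352%). *Rn45s* was 3.28 higher without LPS under RSKi47 than in WT cells (adjusted p = 0.000201 by limma), which lay at 15.19 to 15.78. The summed linear level of the 12 neutrophil genes was 592 to 1046 in WT libraries without LPS and 589 to 817 at 2 h, all below the RSKi47 sums at those times. For the 11 stromal genes the WT sums were 52.6 to 61.2 and 86.9 to 108, below the RSKi47 libraries without LPS and meeting their lowest at 2 h. The part of these genes in the differences was not tested.

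The test of the difference itself, RSKi47 response minus WT response, called 9 genes whose difference was positive and 110 whose difference was negative (0.0755% and 0.923%, by limma with the same limits). Of the 110, 99 rose by at least 1 in WT cells, and of these 56 rose by at least 1 under RSKi47, 42 moved by less than 1 and 1 fell by at least 1. In 41 of the 110 genes the level without LPS under RSKi47 was above that of WT cells at an adjusted p under 0.05 by limma (25.5% of all genes tested), and in 5 it was below (25.5%). Without RSKi47 replicate 4 at every time, the counts were 13 and 97. Leaving out that replicate at 2 h alone gave 15 positive differences. With WT replicates 7 to 9 only, which hold 1 library at 2 h, the counts were 14 and 67.

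**Figure D4:**
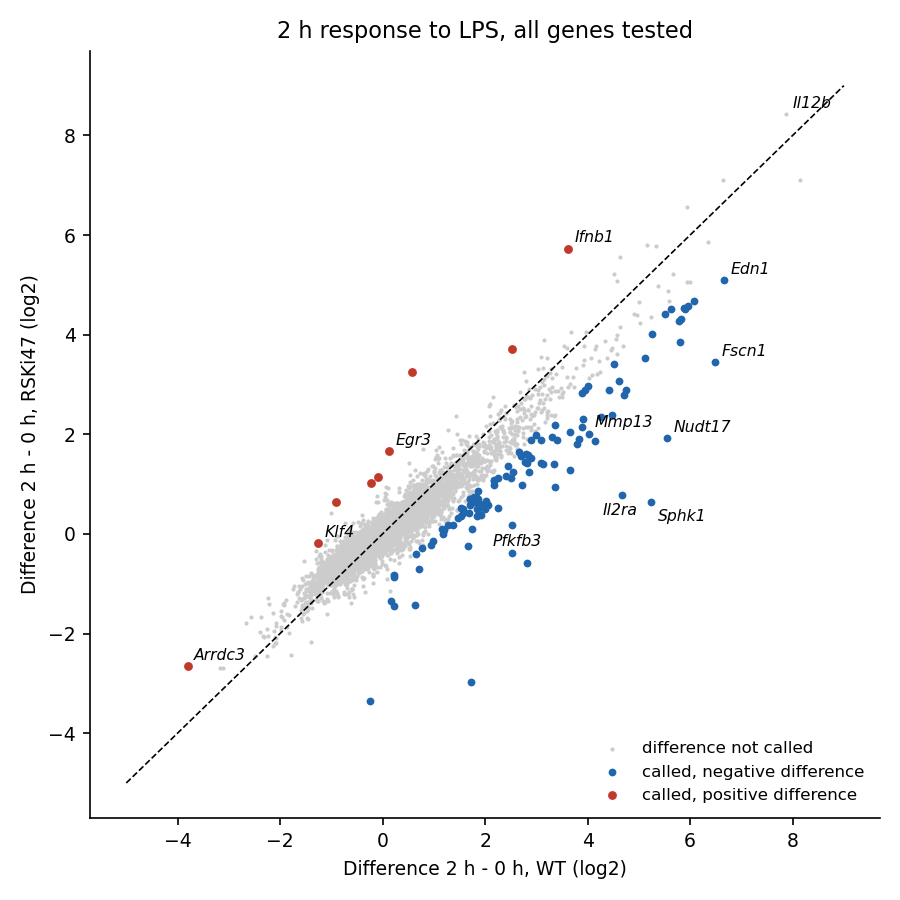
Log2 difference between 2 h of LPS and no LPS in untreated WT cells (x axis) and under RSKi47 (y axis) for 11919 genes, with the line of equal response dashed. The 110 genes with a called negative difference (blue) lie below the line and the 9 with a positive one (red) above it, with *Sphk1* at 5.25 in WT cells and 0.63 under RSKi47.

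Several genes induced in WT cells were not called under RSKi47. *Sphk1* (chr11:116530836-116536675), which makes sphingosine 1-phosphate, was at 2.80, 2.92 and 3.08 (lowest, median and highest) in unstimulated WT libraries and at 7.72, 7.97, 9.66 and 7.34 at 2 h. Under RSKi47 it was at 3.53, 3.87, 3.46 and 3.88 and then at 4.47, 4.43, 4.40 and 3.98. The 2 h libraries of the 2 groups did not overlap, and the difference of the responses was -4.61 ± 0.31 (SE; adjusted p = 1.45e-18 by limma). *Il2ra* (chr2:11642792-11693194), the α-chain of the IL-2 receptor, was at 2.88, 3.26, 2.80 and 2.94 under RSKi47 and at 4.09, 3.95, 4.04 and 2.96 at 2 h, with WT libraries at 6.98, 6.37, 8.70 and 8.16 at that time (difference of responses -3.88 ± 0.34, SE; adjusted p = 7.4e-14 by limma). *Pfkfb3* (chr2:11471430-11554071), which drives glycolysis by making fructose 2,6-bisphosphate, stayed at 10.21, 10.30, 10.28 and 10.35 before and 10.47, 10.55, 10.48 and 10.37 after LPS, while WT libraries reached 12.19, 12.26, 12.62 and 11.81 from a median of 9.70 (-2.34 ± 0.17, SE; adjusted p = 2.36e-17 by limma).

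Other genes rose under RSKi47 but by less than in WT cells. *Fscn1* (chr5:142960355-142973189), the actin-bundling protein fascin, went from 5.27, 5.62, 4.96 and 5.56 to 8.58, 9.30, 8.92 and 8.42, and in WT cells from 3.77 to 4.31 (median 3.98) to 10.91, 10.60, 10.59 and 9.80. Its responses were 3.45 and 6.48 and differed by -3.03 ± 0.38 (SE; adjusted p = 7.85e-09 by limma). *Mmp13* (chr9:7272514-7283333), a collagenase, went from 10.30, 10.35, 10.33 and 9.80 to 12.37, 12.42, 12.37 and 11.66, while WT libraries went from 9.25 to 9.53 (median 9.32) to 13.41, 13.29, 13.59 and 13.18 (difference of responses -2.01 ± 0.17, SE; adjusted p = 4.56e-15 by limma). *Vcam1*, an adhesion molecule, rose by 2.38 against 4.48 in WT cells (-2.10), and *Nudt17*, a nudix hydrolase, by 1.92 against 5.56 (-3.64). *Sema4c* (chr1:36548639-36560699), a semaphorin, had a log2 difference of 0.94, short of the size that was called, against 3.36 in WT cells (-2.42). Without LPS, *Vcam1* was 2.20, *Fscn1* 1.36, *Mmp13* 0.85, *Ccl5* 0.70 and *Ccl22* 0.47 higher under RSKi47 than in WT cells (adjusted p = 2.67e-16, 9.71e-06, 2.74e-09, 8.83e-05 and 0.0163 by limma), and *Batf* was lower (-0.78, adjusted p = 1.99e-08). *Edn1* (-1.57), *Dusp2* (-1.54), *Cish* (-1.41), *Ccl22* (-1.34), *Socs3* (-1.10), *Ccl5* (-1.09) and *Batf* (-1.01), all called higher under RSKi47, had smaller rises there than in WT cells. Also with a negative difference were *Il10* (1.42 against 3.09), *Csf2* (1.45 against 2.78), *Fosl2* (-0.25 against 1.66) and *Errfi1* (1.24 against 2.86), named after their values were seen, as were *Fscn1*, *Sema4c*, *Pfkfb3*, *Vcam1* and *Mmp13*.

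Among the 9 positive differences, *Ifnb1* (chr4:88522025-88522794), the gene for interferon-β, had a response that was larger under RSKi47 though it rose in WT cells too. Under RSKi47 it was at 4.84, 4.85, 4.90 and 4.93 without LPS and at 10.62, 11.36, 11.52 and 8.92 at 2 h, and in WT cells at 4.44 to 4.74 (median 4.61) and then at 8.43, 8.19, 7.81 and 8.51. The 2 h libraries did not overlap, though replicate 4 was near the WT range, and the responses of 5.73 and 3.62 differed by 2.10 ± 0.36 (SE; adjusted p = 7.88e-06 by limma). Its upstream window (chr4:88522795-88523044, minus strand), shown because this gene led the larger responses among unique genes, holds NF-κB letters (capitals).
Ifnb1: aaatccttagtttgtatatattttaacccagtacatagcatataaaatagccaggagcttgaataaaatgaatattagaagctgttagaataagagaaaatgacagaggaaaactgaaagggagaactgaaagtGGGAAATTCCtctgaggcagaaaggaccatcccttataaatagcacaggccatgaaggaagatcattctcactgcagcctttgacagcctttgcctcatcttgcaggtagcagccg
*Egr3* (chr14:70077317-70082613) was at 6.46, 6.25, 6.25 and 6.07 and at 8.23, 8.34, 8.13 and 7.01 under RSKi47, while WT cells were at 6.81 to 7.20 (median 6.96) and then at 6.96, 7.31, 7.11 and 7.11 (difference of responses 1.54 ± 0.26, SE; adjusted p = 7.89e-06 by limma). The other positive differences were *Bmp2* (1.55), a growth factor of the TGF-β family, *Bambi* (1.26), a TGF-β pseudoreceptor, *Asap3* (1.23), an Arf GTPase-activating protein, *Plagl1* (1.20) and *Klf4* (1.07), zinc finger factors, *Arrdc3* (1.15), whose fall was smaller under RSKi47 (-2.65 against -3.80), and *H2-Q6* (2.69, adjusted p = 0.0409), an MHC class Ib gene with close copies between which reads may have been split. *Arrdc3* started lower under RSKi47, by 1.02 (11.27 to 11.52 in WT and 10.12 to 10.51 under RSKi47 without LPS), and its 2 h levels overlapped (7.47 to 7.78 and 7.65 to 7.83). *Egr3* and *Bmp2* also had lower levels without LPS under RSKi47, with log2 differences from WT of -0.74 and -0.81 (adjusted p = 0.000364 and 0.000728 by limma). The responses under RSKi47 and in WT cells were -0.19 and -1.25 for *Klf4* and 0.64 and -0.92 for *Bmp2*. They were 1.02 and -0.23 for *Bambi*, 1.14 and -0.08 for *Asap3*, and 3.72 and 2.52 for *Plagl1*. Of the 9 genes with positive differences, *H2-Q6*, *Klf4*, *Plagl1* and *Asap3* lost the call in at least 1 alternative. *H2-Q8*, of the same gene family as *H2-Q6*, had a called negative difference (-2.89, adjusted p = 1.57e-05 by limma). How reads were shared between them was not tested.

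By gene list, the calls against the WT response are read beside 0.923% negative and 0.0755% positive over all genes. No member of the TLR4, Bcl2, macrophage identity, cholesterol and TPL-2 cascade lists was called. Of the 20 NF-κB genes, 2 were called with a negative difference and none with a positive one, of 19 cytokines 3 and 1, of 19 chemokines 4 and none, of 33 interferon-stimulated genes 1 and none, and of 15 ERK feedback genes 3 and none. Of 23 immediate early genes, 2 were called in each direction, and of 15 CREB-linked genes 2 were called with a negative difference and none with a positive one. The cell cycle and NRF2 lists had 1 negative call each, and the lists of mRNA decay and Socs genes, of prostaglandin, nitric oxide and itaconate enzymes, and of glycolysis genes 2 each, with no positive call. By adjusted p alone, 12 of the 20 NF-κB genes had a negative difference and none a positive one, beside 9.53% and 9.65% of all genes. On the same terms the counts were 9 and 2 of 18 Bcl2 genes, 9 and 1 of 19 chemokines, 4 and none of 17 TLR4 genes, 6 and none of 33 interferon-stimulated genes, 5 and 1 of 19 cytokines, 6 and 2 of 15 ERK feedback genes, 5 and 2 of 22 macrophage identity genes, 3 and none of 11 cascade genes, and none of 18 cholesterol genes in either direction. In the CREB-linked list 3 were negative and 4 positive, and in the immediate early list 4 and 4. The median difference of the lists was -0.30 for NF-κB, -0.07 for cytokines, -0.36 for chemokines, -0.51 for interferon-stimulated genes, -0.17 for immediate early genes, -0.01 for CREB-linked genes and 0.16 for cell cycle genes, beside 0.02 over all genes. Without LPS, 19 of the 33 interferon-stimulated genes were already higher under RSKi47 than in WT cells by adjusted p. None was lower, beside 25.5% of all genes in each direction, and the median difference was 0.46. Of 12 prostaglandin, nitric oxide and itaconate enzymes, 7 were higher and 1 was lower without LPS (median 0.50). Among the 23 immediate early genes 1 was higher and 9 were lower (median -0.16). *Ifit1* had medians of 11.06 under RSKi47 and 10.24 in WT without LPS, and of 14.62 and 14.61 at 2 h. *Rsad2* had medians of 12.52 and 11.71, and then of 16.18 and 15.78, so that the 2 h medians of *Ifit1* and *Rsad2* were not below those of WT. *Mx2*, the interferon-stimulated gene with a called negative difference, rose by 3.41 under RSKi47 and by 4.52 in WT cells. Without LPS it was 0.46 higher under RSKi47 (adjusted p = 0.0671 by limma). The 2 h levels of *Mx2* and the other members were not compared with those of WT.

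The RSKi47 response was also compared with the responses of cells that lack TPL-2 kinase activity or ELK1 and ELK4, each against its own unstimulated libraries, as 3 comparisons in all with that of WT cells. *Map3k8*[D270A] cells had 835 genes higher and 260 lower at 2 h (7.01% and 2.18%), and *Elk1*-/-*Elk4*-/- cells 869 and 347 (7.29% and 2.91%). The RSKi47 response differed from that of *Map3k8*[D270A] cells in 32 genes with a positive and 66 with a negative difference (0.268% and 0.554%), and from that of *Elk1*-/-*Elk4*-/- cells in 21 and 72 (0.176% and 0.604%). *Sphk1* rose by 1.39 in *Map3k8*[D270A] and 1.71 in *Elk1*-/-*Elk4*-/- cells, below its WT rise of 5.25, and the RSKi47 response differed by -0.76 from the first (adjusted p = 0.0649 by limma, not called) and by -1.07 from the second (adjusted p = 0.0139). *Pfkfb3*, *Il2ra* and *Sema4c* rose by 1.61, 2.59 and 1.79 in *Map3k8*[D270A] cells and by 1.72, 3.41 and 2.66 in *Elk1*-/-*Elk4*-/- cells. Against *Map3k8*[D270A] cells the RSKi47 responses differed by -1.43 for *Pfkfb3* (adjusted p = 3.89e-10 by limma), -1.80 for *Il2ra* (adjusted p = 3.08e-05) and -0.85 for *Sema4c* (adjusted p = 0.00109; below the size that was called).

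*Fscn1* rose by 5.90 in *Map3k8*[D270A] and 5.99 in *Elk1*-/-*Elk4*-/- cells, above its rise of 3.45 under RSKi47 by called differences (-2.44 and -2.54, adjusted p = 5.48e-07 and 2.28e-06 by limma). *Egr3* had log2 differences of -1.33 and -0.40 there, against 1.67 under RSKi47 (2.99 and 2.06, adjusted p = 7.19e-14 and 5.87e-08 by limma). Its starting levels differed, at 7.60 to 8.13 in *Map3k8*[D270A], 6.47 to 6.82 in *Elk1*-/-*Elk4*-/- and 6.07 to 6.46 in RSKi47 cells, and the medians at 2 h were 6.54, 6.19 and 8.18. *Ifnb1* rose by 4.63 and 4.20, between the WT and RSKi47 values, and its RSKi47 response was larger than both (1.09 and 1.53, adjusted p = 0.0181 and 0.00234 by limma). RSKi47 replicate 4, at 8.92 after 2 h, lay within their ranges of 8.91 to 9.45 and 8.86 to 9.27, and the other 3 replicates lay above both. *Dusp6* fell in all 4 groups, with a log2 difference of -1.67 under RSKi47, -2.56 in WT, -2.85 in *Map3k8*[D270A] and -2.28 in *Elk1*-/-*Elk4*-/- cells, and the difference from *Map3k8*[D270A] cells was called (1.18, adjusted p = 5.28e-08 by limma). *Dusp6* started lower under RSKi47 (8.87 to 9.49) than in *Map3k8*[D270A] cells (9.89 to 10.24). Its 2 h levels overlapped (7.39 to 7.71 and 6.89 to 7.46). *Il12b* rose by 8.42, 7.88, 8.12 and 7.71 in RSKi47, WT, *Map3k8*[D270A] and *Elk1*-/-*Elk4*-/- cells, respectively, with no called difference.

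**Figure D5:**
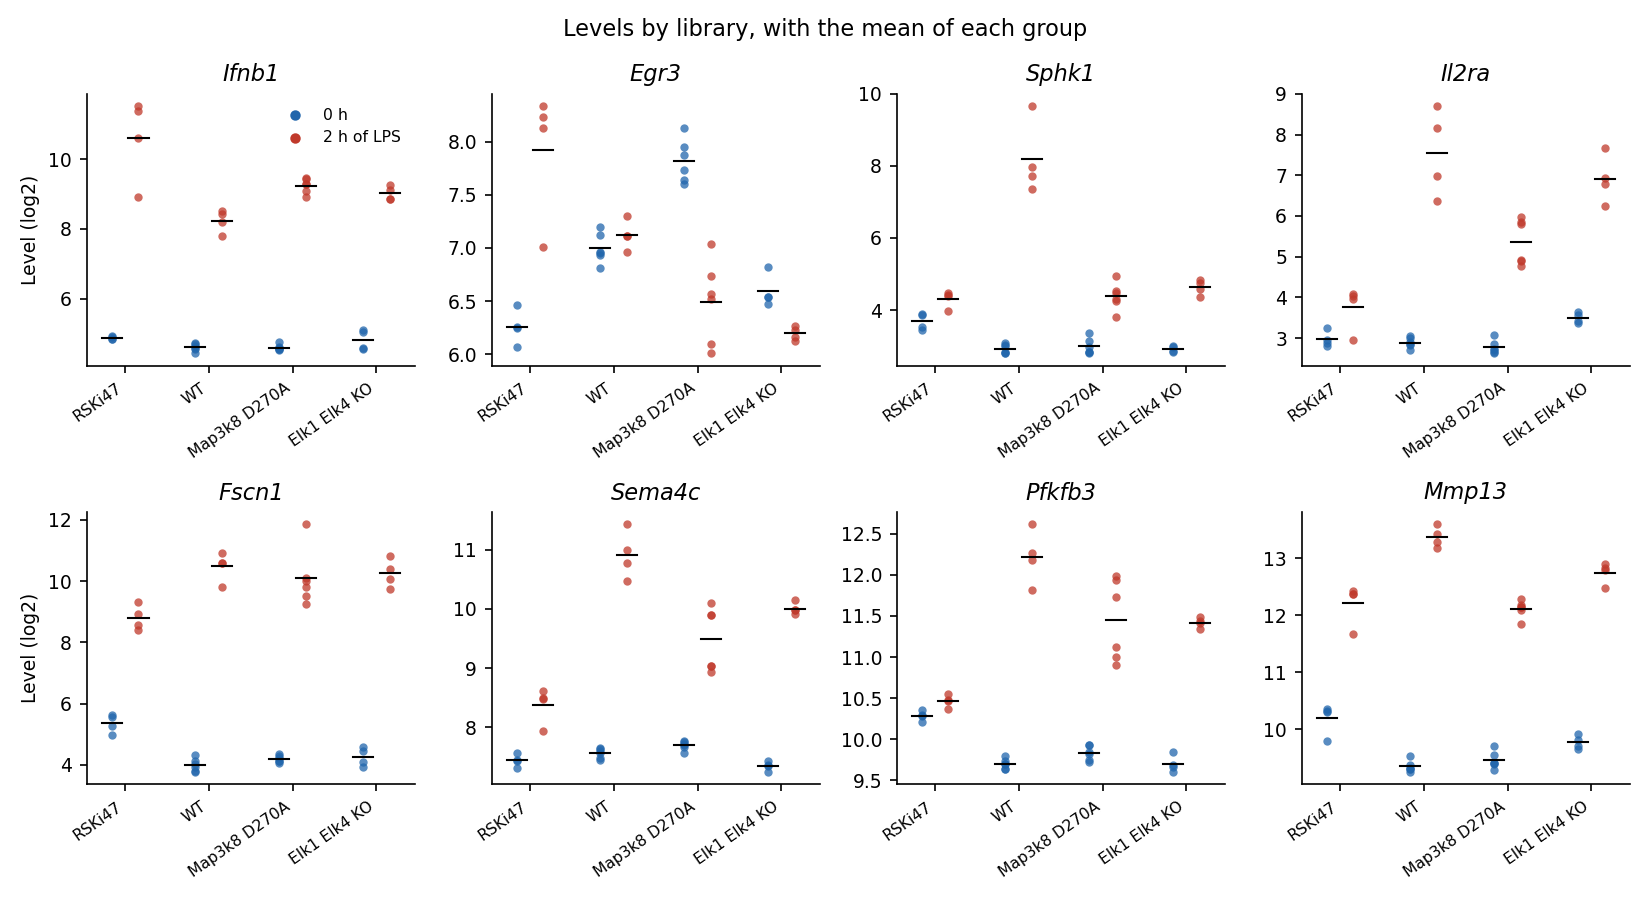
Level (log2) of 8 genes in each library without LPS (blue) and at 2 h of LPS (red) under RSKi47 and in untreated WT, *Map3k8* D270A and *Elk1* *Elk4* KO cells, with a bar at each group mean. *Sphk1* at 2 h lies at 7.34 to 9.66 in WT cells and at 3.98 to 4.47 under RSKi47, and *Ifnb1* at 2 h is higher in each RSKi47 library (8.92 to 11.52) than in WT libraries (7.81 to 8.51).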

How the data were processed

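Gene expression was measured by single-end, strand-specific RNA-seq of cultured macrophages. The authors aligned the reads to mm10 with STAR, used RSEM to estimate counts for RefSeq genes and DESeq2 to compare groups, and their processing notes name STAR 2.5.1b, RSEM 1.2.29 and DESeq2 1.10.1. The authors deposited normalized values on a log2 scale for 18098 genes, and how they were transformed is not stated in the sources used here. They are not counts, so the depth of single libraries is unknown, and the authors state only a typical yield. The number of replicates limits the precision. The values run to 19.81, apart from 1 of 57.73 (*Fosb*, RSKi47 replicate 1 at 1 h), which exceeded a limit of 25 and was set to missing. Differences may be drawn together or lie on another logarithm, so a threshold of the natural logarithm of 2 (0.693) was also tried.

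Samples were grouped by their labels. Genes that reached a linear value of 10 in 4 or more libraries were tested with limma 3.58.1 (R 4.3.3), its moderated test without a trend, 2-sided, with Benjamini-Hochberg adjustment over all genes tested. The first fit held the 15 RSKi47 libraries, and the second 77 libraries of RSKi47, WT, *Map3k8*[D270A] and *Elk1*-/-*Elk4*-/- cells, for differences between responses. Calls needed an adjusted p under 0.05 and a log2 difference of 1 or more in size. Every adjusted p is from limma. The replicate libraries are called biological by the methods, and p-values measure the spread between them. Same-numbered RSKi47 libraries at 0 and 2 h deviated together (correlations of 0.498, 0.368, 0.364 and 0.624), so the numbers were taken to pair the samples, as found from the data and not from the labels. No pair of libraries held an equal value for any gene. The scripts were tested on simulated data.

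Named genes are the 12 largest rises and falls without overlap between times, the 6 largest and 6 smallest called differences from the WT response, up to 4 called genes of each list, and the RSK genes. The other members given with a value were added from the lists, and 8 further genes, with *Il10*, *Csf2*, *Fosl2* and *Errfi1*, were added after their values were seen. Some genes that meet the rule are not reported here. The members and lists were chosen with earlier results of these data known. Positions and promoters are from RefSeq on GRCm38.p6, with 83 of 85 named genes found. Alternatives covered filters, thresholds, scaling, the samples fitted, the replicate block and each replicate left out.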

Additional observations from a re-analysis of the deposited data

Results flagged for a closer look

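Single libraries lay far from the others of their group of 4 in 18 of 170 groups tested by Dixon's criterion, which chance meets in about 1 group in 20, and 15 of the 18 were replicate 4. At 2 h of LPS, replicate 4 was lowest for *Nr4a3* (8.80, others 9.96 to 10.03), *Egr3* (7.01, others 8.13 to 8.34), *Sphk1* (3.98, others 4.40 to 4.47), *Il2ra* (2.96, others 3.95 to 4.09), *Map3k8* (10.06, others 10.79 to 10.84), *Rsad2* (14.84, others 16.11 to 16.27), *Cish* (8.68, others 9.55 to 9.65), *Socs1* (8.95, others 10.37 to 10.59), *Irf8* (12.22, others 13.37 to 13.58), *Ccnd2* (9.26, others 10.54 to 10.72) and *Mmp13* (11.66, others 12.37 to 12.42). Without LPS, replicate 4 was lowest for *Rsad2* (11.60, others 12.52 to 12.67) and *Mmp13* (9.80, others 10.30 to 10.35) and highest for *Tnfaip3* (11.69, others at 11.59) and *Sod2* (11.29, others 11.03 to 11.04). The other 3 were *Nr4a3* in replicate 3 without LPS (3.97, others 4.17 to 4.20), *Rps6ka1* in replicate 3 at 2 h (10.85, others 10.93 to 10.95) and *Tgoln2* in replicate 1 at 2 h (4.63, others 1.49 to 1.53).

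Responses of named genes that differed between RSKi47 and WT cells by the test of the difference were positive for *H2-Q6* (2.69), *Ifnb1* (2.10), *Bmp2* (1.55), *Egr3* (1.54), *Bambi* (1.26), *Asap3* (1.23), *Plagl1* (1.20), *Arrdc3* (1.15) and *Klf4* (1.07). They were negative for *Rn45s* (-4.69), *Sphk1* (-4.61), *Il2ra* (-3.88), *Nudt17* (-3.64), *Tgoln2* (-3.40), *Mir6236* (-3.12), *Fscn1* (-3.03), *Sema4c* (-2.42), *Pfkfb3* (-2.34), *Vcam1* (-2.10) and *Mmp13* (-2.01). In *Tgoln2*, a trans-Golgi protein, libraries of the same group lay either near 1.5 or above 4, with 4.19, 1.44, 1.46 and 4.42 without LPS and 4.63, 1.51, 1.53 and 1.49 at 2 h under RSKi47. *Rn45s* varied in WT cells at 2 h, at 15.16, 19.81, 17.53 and 15.79. *Mir6236* without LPS was 6.31 higher under RSKi47 than in WT cells (adjusted p = 9.99e-29 by limma).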

How the results depend on the processing

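Genes higher and lower at 2 h numbered 3830 and 3486 by adjusted p alone, 1258 and 863 with a threshold of 1.5-fold, and 1036 and 583 with the natural logarithm of 2, which added genes and kept all of the first 665 and 201. Positive and negative differences from the WT response numbered 1150 and 1136, 74 and 321, and 37 and 237 under the same limits. Leaving out each replicate in turn gave 636 to 728 higher and 192 to 214 lower genes, and 8 to 15 positive and 89 to 132 negative differences, with 15 reached without RSKi47 replicate 4 at 2 h. With the replicate block the counts at 2 h were 665 and 201, and differences with the block within treatment were 12 and 110, so the pairing changed no count by over 1.5 times. Only WT replicates 7 to 9, an alternative chosen after seeing the data, gave 14 and 67, where the lone WT library at 2 h is assumed to vary like the others. Median centring gave 640 and 228 and quantile normalization 602 and 224. The difference of *Rps6ka3* turned to -0.25 with quantile normalization (adjusted p = 0.00079 by limma), and that of *Tgoln2* to 0.20 without replicate 4 at every time (adjusted p = 0.922). The cause was not tested. Genes that lost the call at 2 h in at least 1 alternative included *Bambi*, *Asap3*, *Irf8*, *Mki67*, *Ticam2*, *Tab2*, *Myd88*, *Rela*, *Jun* and *Zbtb46*, and *H2-Q6*, *Tgoln2*, *Klf4*, *Plagl1* (0.89 with only WT replicates 4 to 6), *Asap3* and *Rn45s* lost a called difference from WT in at least 1. The depth of single libraries is unknown, so its limit on low genes cannot be given.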
